A study of Mus musculus with 6 samples.

Results

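The Pramel genes are a mouse gene family related to PRAME, an antigen first known from melanoma, and were examined in embryonic stem (ES) cells with and without Dppa4. The platform annotation, read with its gene symbols, gave 25 of 45037 probe sets with a symbol that begins with Prame or with Gm13040, Gm13043 or Gm13057 among the symbols. Of these, 16 name 1 gene and 9 are shared by several, and the 16 cover 12 genes. Membership followed the symbol, with no threshold on a value. The family itself was selected on the knockout against parental differences of these same 6 arrays, which were already known for some of its probe sets, so its differences are given as a description, without a test.

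The arrays were hybridised with biotin-labelled total RNA of 2 mouse ES cell lines, with 3 arrays per line. The parental line, CI#84.2, is hemizygous for Dppa4. The knockout line, CI#243.12, lacks Dppa4 and was compared with that parental line. Feeder cells, mouse embryonic fibroblasts, lay under both lines in culture, so each array also carries feeder RNA. Each genotype is 1 cell line, so a difference between genotypes cannot be told apart from a difference between these lines, and no label says that the replicates were separate cultures. Values are log2 expression values after RMA (robust multi-array average), and all differences are knockout minus parental on that scale. Dppa4, the targeted gene, read 10.37 ± 0.08 in parental and 8.73 ± 0.09 in knockout arrays (SD, n = 3), and was lower by limma's test (-1.63, adjusted p = 0.000112). Whether its probe set falls inside the deleted stretch is not given in the sources used here. By the same test and an adjusted p under 0.05, 0.402% of all probe sets changed. Background was set at 3.78. Of 80 probe sets for odour and pheromone receptors (Olfr and Vmn genes), which ES cells are not known to express, 95% had a mean at or below that level. ES cell markers were present, with 10 of 10 above background and 0 changed; Pou5f1, a core pluripotency factor, differed by -0.06 (adjusted p = 0.852, limma) and Nanog, another, by -0.49 (adjusted p = 0.122). All 12 of 12 feeder fibroblast markers were above background too, with 0 changed. Their mean over the list ran from 10.45 to 10.59 in parental and from 10.57 to 10.72 in knockout arrays. Of these 12 markers, 11 were higher and 0 lower in knockout arrays, with a median of 0.12. A difference in feeder share between the lines was not tested. Germ cell markers were lower: 6 of 10 fell and 0 rose, and their mean ran from 5.94 to 6.09 in parental and from 4.37 to 4.45 in knockout arrays. Of the oocyte markers 0 of 10 changed, with 4 above background and a list mean of 3.57 to 3.73 in parental and 3.58 to 3.71 in knockout arrays. Of the markers of primitive endoderm 0 of 8 changed, and of trophoblast 0 of 9. At an unadjusted p under 0.05 (limma), the lists with 0 changed held 1 ES cell, 2 feeder, 1 oocyte, 0 primitive endoderm and 2 trophoblast markers, and with an intensity trend and robust prior 1 ES cell marker passed and 0 of the others.

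PRAME proteins are built from leucine-rich repeats, and several act as substrate receptors of ubiquitin ligases built on Cullin 2. Most mouse members are expressed in oocytes, testis or early embryos and lie in tandem clusters of near-identical copies. Pramel7 and Pramel6 are known from the inner cell mass and from naive ES cells, where Pramel7 directs the maintenance methylation factor Uhrf1 to degradation and responds to the LIF and Stat3 pathway. In RefSeq's table of genes on the assembly GRCm38.p6 there are 51 protein-coding genes with these symbols, 27 of them on chromosome 4, 18 on chromosome 5, 3 on the X chromosome, 2 on chromosome 2 and 1 on chromosome 12.

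A single probe set, 1442334_at, stands for Gm13043, Gm13040 and Gm13057, which are direct neighbours on chromosome 4. Their promoters are shown because the near-identity of these genes, which share a probe set, extends into the sequence before the start site. Each line gives the 250 bases before the start in RefSeq's table (GRCm38.p6), 5′ to 3′, and capitals mark TATAAA and TGATTGAA or its reverse complement. The Gm13043 window is chr4:143511093-143511342, plus strand, and the Gm13040 window is chr4:143535704-143535953, plus strand.

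Gm13043: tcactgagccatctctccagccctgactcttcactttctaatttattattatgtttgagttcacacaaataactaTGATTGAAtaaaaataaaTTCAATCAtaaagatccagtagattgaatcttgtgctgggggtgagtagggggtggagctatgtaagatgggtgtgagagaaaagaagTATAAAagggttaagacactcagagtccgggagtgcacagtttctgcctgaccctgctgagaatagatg

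Gm13040: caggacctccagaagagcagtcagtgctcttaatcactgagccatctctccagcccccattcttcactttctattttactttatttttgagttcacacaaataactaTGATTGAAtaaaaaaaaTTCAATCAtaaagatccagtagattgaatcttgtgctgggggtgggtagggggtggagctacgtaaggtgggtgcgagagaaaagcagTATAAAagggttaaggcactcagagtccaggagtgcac

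The Gm13040 sequence was the same, over all 250 bases, as those of Gm13057 and Pramel20, the next gene in the row. None of the 25 family probe sets lists Pramel20. Gm13043 matched it at 204 of 217 aligned bases (94%), with its annotated start placed further downstream. In each of the 3 genes TATAAA ended 33 bases before the start (Gm13040 and Gm13057) or 64 bases before it (Gm13043). TGATTGAA, a motif chosen for display after the sequences were read, stood once on each strand. Over 27025 promoters, searched on both strands with 1 start per gene, 13% held TATAAA and 0.57% held TGATTGAA. Of the 42 family promoters in the table, 16 (38.1%) held the former and 5 (11.9%) the latter: Gm13043, Gm13040, Gm13057, Pramel20 and Pramel31. These 5 match each other at 93.6% or more of aligned bases. Because TGATTGAA was picked from such windows, nothing is read from its share. The motifs CACGTG (an E-box, found in 6.05% of all promoters) and TTCNNNGAA (a Stat motif, 7.18%) were in 0 of the 42 windows. A match is a description of letters, and no binding was measured here.

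The windows of Pramel13 and Pramel1 are shown for contrast, because these genes come from the same chromosome 4 cluster but were measured above background in both lines. Capitals here mark CpG dinucleotides. The Pramel13 window is chr4:144408465-144408714, minus strand, and the Pramel1 window is chr4:143394191-143394440, plus strand.

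Pramel13: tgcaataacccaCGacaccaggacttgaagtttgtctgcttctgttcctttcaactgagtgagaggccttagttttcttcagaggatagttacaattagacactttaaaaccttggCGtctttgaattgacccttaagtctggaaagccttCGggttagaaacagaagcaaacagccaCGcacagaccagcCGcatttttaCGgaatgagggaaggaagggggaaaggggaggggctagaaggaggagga

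Pramel1: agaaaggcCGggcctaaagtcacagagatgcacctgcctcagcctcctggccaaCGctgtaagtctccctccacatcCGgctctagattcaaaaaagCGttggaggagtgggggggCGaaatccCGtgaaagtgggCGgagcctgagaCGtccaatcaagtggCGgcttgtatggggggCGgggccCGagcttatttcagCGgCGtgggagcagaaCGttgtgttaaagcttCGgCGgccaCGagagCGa

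Pramel1 held 18 CpGs and Pramel13 held 6, against 1 in Gm13043 and 2 in Gm13040. Prame held 7 and Pramel3 held 5, but Prame and the shared probe set of Pramel3 were below background on all arrays. Pramel12 and Pramel18 are not among the 42 family promoters. A link between CpG count and expression was not tested. Family promoters were poor in CpG, with a median of 1 and a range of 0 to 18 over 42 promoters, beside a median of 6 over all 27025.

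**Figure D1:**
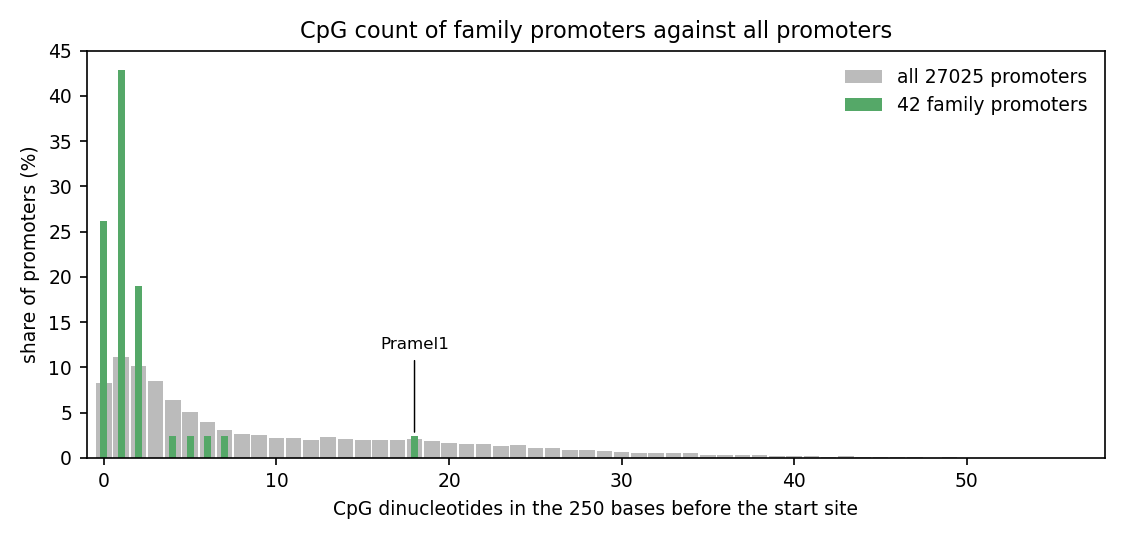
Share of promoters (vertical axis, percent) with each number of CpG dinucleotides in the 250 bases before the start site (horizontal axis), for all 27025 promoters in grey and the 42 family promoters in green. Most family promoters hold 2 or fewer, and Pramel1, with 18, stands alone on the right.

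Most family probe sets were not above background on the arrays. Of the 25 probe sets, 7 had a group mean above background and 18 did not, so 7 passed this filter on low values. Over the whole series, 26803 of 45037 probe sets passed it. The Gm13040, Gm13043 and Gm13057 probe set and Pramel18 passed through their parental means alone. Among the 7, the Gm13040, Gm13043 and Gm13057 probe set and Pramel18 were lower in knockout cells, 3 probe sets of Pramel12 were higher, Pramel13 was slightly lower and Pramel1 overlapped between the groups. Over all 25, the median difference was -0.04, beside 0.00 over all 45037 probe sets, with 14 below 0 and 11 above.

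**Figure D2:**
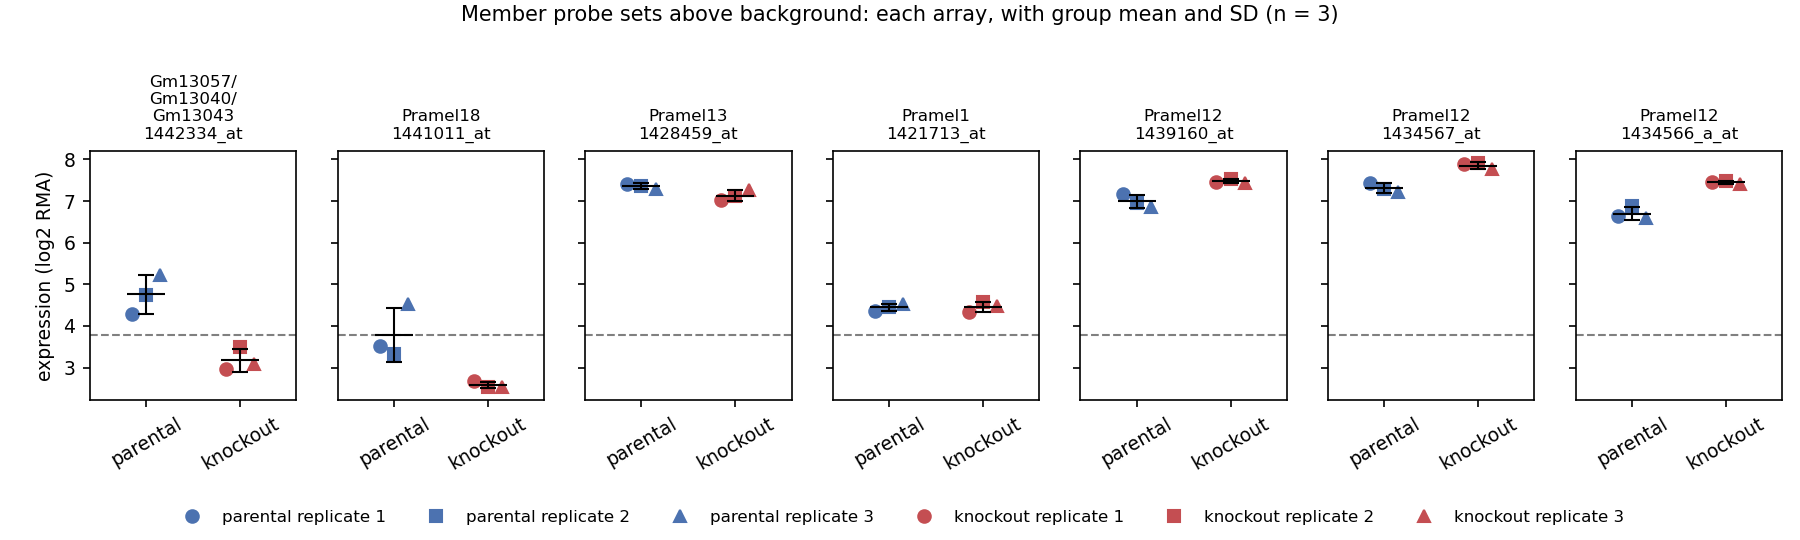
Log2 expression (vertical axis) of the 7 probe sets with a group mean above background, with 1 marker per array, parental in blue and knockout in red; bars give the mean and SD of 3 arrays and the dashed line the background level of 3.78. The 2 panels on the left show knockout arrays below the line, and the 3 panels on the right show Pramel12 higher in every knockout array.

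Gm13040, Gm13043 and Gm13057 gave the largest difference. Probe set 1442334_at read 4.29, 4.75 and 5.23 in parental replicates 1, 2 and 3 and 2.96, 3.49 and 3.08 in knockout replicates 1, 2 and 3. Every parental array lay above background and every knockout array below it, so the groups did not overlap. The means were 4.76 ± 0.47 and 3.18 ± 0.28 (SD, n = 3), a difference of -1.58 (SE 0.32). Because the knockout arrays were at background, the fold is a bound, at least 1.96-fold lower. The probe set cannot say which of the 3 genes carried the parental signal. In RNA of whole cultures, fewer cells expressing a gene and less RNA per cell cannot be told apart.

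Pramel18, which lies apart from the main cluster next to Pramel19 on chromosome 4, was lower as well, on probe set 1441011_at. It read 3.51, 3.32 and 4.53 in parental replicates 1, 2 and 3 and 2.67, 2.53 and 2.54 in the knockout replicates. The groups did not overlap, but parental replicate 3 alone lay above background. The difference was -1.21 (SE 0.38), from 3.79 ± 0.65 to 2.58 ± 0.08 (SD, n = 3). Without parental replicate 3 it was -0.84, and no fold above 1 could be bounded. The parental mean exceeded the background level by less than the rounding of the printed values.

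These 2 of 25 probe sets were the ones without overlap and with a difference of -1 or lower, a rule met by 0.206% of all 45037 probe sets (93). Nothing is read from this count, since the family was chosen on the same comparison. It was 1 without parental replicate 3. Germ cell markers, 6 of 10 of which fell, moved with these probe sets, while 0 of 10 oocyte markers changed; the part of such cells in the result was not tested.

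Parental replicate 3 was the highest parental array for both. The 2-cell-like state is a rare ES cell state that resembles the 2-cell embryo, and its genes were read on the same parental arrays. Of the 9 measured genes of that list, parental replicate 3 was highest in 4 (Usp17la, Zfp352, Eif1ad and Tcstv3), replicate 2 in 3 (Arg2, Tcstv1 and Spz1) and replicate 1 in 2 (Tdpoz1 and Duxf3). Of the 4 above background, replicate 3 was highest in 3 (Usp17la, Zfp352 and Eif1ad). Arg2, an arginase gene, read 3.83, 4.62 and 4.01 in parental replicates 1, 2 and 3. Eif1ad read 9.33 ± 0.09 in parental and 9.18 ± 0.11 in knockout arrays (SD), with overlapping groups, and may not mark this state. The other list genes had both group means at or below background, where the order of arrays cannot be read. Replicate 3 was also highest in 3 shared probe sets of genes of this state, which were picked after their values were seen. Probe set 1457033_at, shared by Zscan4 genes, read 8.96, 8.81 and 9.78 in parental replicates 1, 2 and 3. Probe set 1443961_at, shared by Gm4340 and 6 other symbols, read 10.65, 10.55 and 11.44. Usp17la, a deubiquitinase gene, read 5.87, 5.94 and 6.42. Above the parental mean, replicate 3 stood 0.47 higher for 1442334_at, 0.74 for Pramel18, 0.60 for the Zscan4 probe set, 0.56 for the Gm4340 probe set and 0.34 for Usp17la, and it stood at -0.14 for Arg2. Among the other 91 probe sets that met the same rule of a fall, parental replicate 3 was the highest in 40 (44.0%), replicate 1 in 30 and replicate 2 in 20, and replicate 3 was the highest in 31.4% of the 26803 probe sets above background. The share of this array's difference in the family's values was not tested.

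**Figure D3:**
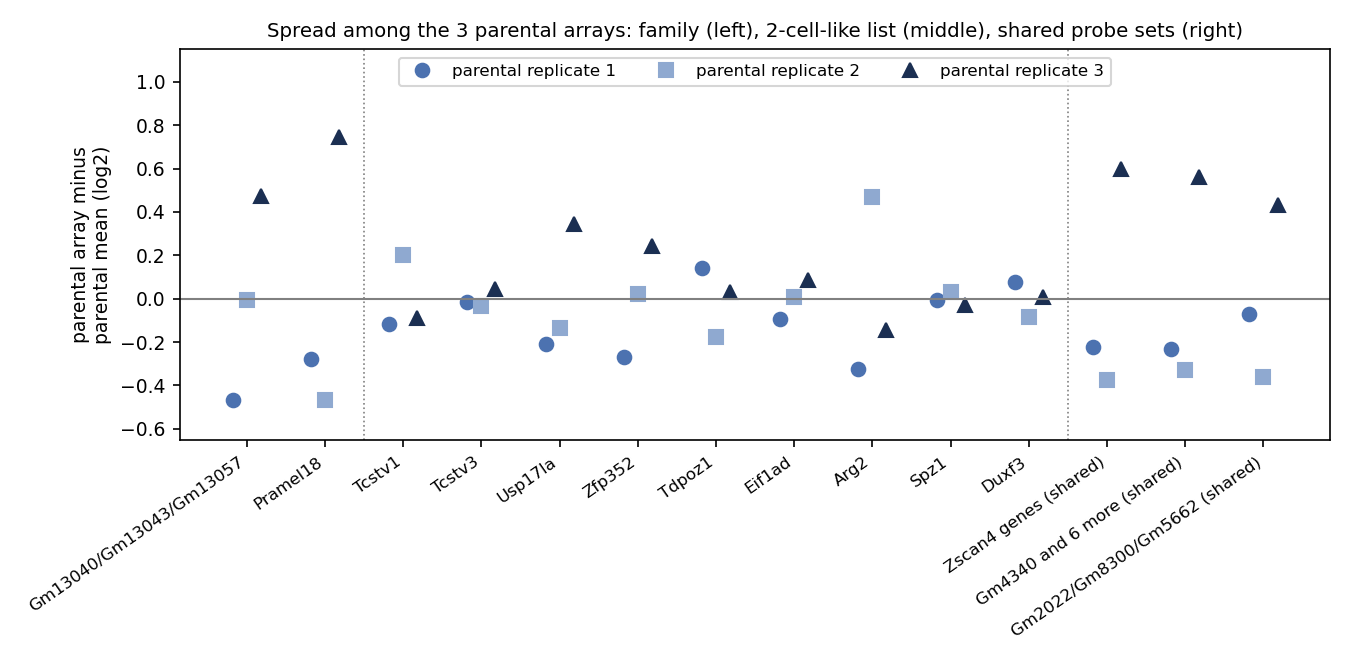
Each parental array minus the mean of the 3 parental arrays (vertical axis, log2) for the 2 family probe sets on the left, the 9 measured genes of the 2-cell-like list between the dotted lines and 3 shared probe sets, picked after their values were seen, on the right. Parental replicate 3, the triangle, is highest in both family probe sets, in 4 of the 9 list genes and in the 3 shared probe sets. Only 4 of the 9 list genes were above background, and replicate 3 was highest in 3 of those.

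Pramel12, formerly Pramef8, was the member that was higher in knockout cells, and its 3 probe sets gave the same direction. Probe set 1434566_a_at read 6.63, 6.87 and 6.60 in parental and 7.45, 7.48 and 7.41 in knockout replicates, a difference of 0.75 (SE 0.09) or 1.68-fold. Probe set 1434567_at read 7.44, 7.28 and 7.21 against 7.88, 7.91 and 7.77, a difference of 0.54 (SE 0.08). Probe set 1439160_at read 7.16, 6.96 and 6.85 against 7.45, 7.53 and 7.44, a difference of 0.48 (SE 0.10). In all 3 each knockout array lay above each parental array. The knockout arrays were tight, with SDs of 0.04 to 0.07 beside 0.12 to 0.16 in parental arrays. The difference stayed between 0.41 and 0.83 over the 3 probe sets when 1 array was left out. Probe sets of 1 gene are not independent samples.

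Pramel12 lies in the same chromosome 4 cluster as Gm13043, Gm13040 and Gm13057, while Pramel18 lies outside it. In the gene order of chromosome 4, Pramel1 comes first, then Pramel12, Oog4, Gm13043, Gm13040 and Gm13057, and only Oog4 stands between Pramel12 and Gm13043. Pramel12 was higher, and the probe set shared by those 3 genes lower, without showing which of the 3 differed. Pramel1 read 4.36, 4.46 and 4.52 in parental and 4.34, 4.58 and 4.47 in knockout replicates, with overlapping groups and a difference of 0.02 (SE 0.08). Pramel13, formerly Pramef12 and a gene of the male germ line, closes the segment of 27 coding genes that Pramel1 opens. It read 7.42, 7.37 and 7.29 in parental and 7.02, 7.11 and 7.27 in knockout replicates. Its groups did not overlap, though knockout replicate 3 and parental replicate 3 were 0.02 apart, and the difference was -0.23 (SE 0.08).

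Pramel6 and Pramel7, the members best known from ES cells, were below background on every array. The probe sets of Pramel7 read 2.85 to 2.96 in parental and 2.78 to 2.95 in knockout arrays (1439809_at), and 3.04 to 3.38 and 3.05 to 3.15 (1439810_s_at). Those of Pramel6 read 2.49 to 2.75 and 2.67 to 2.77 (1456269_at), and 2.82 to 2.97 and 2.53 to 2.89 (1456270_s_at). The groups overlapped in all 4, and the probe sets of Pramel6 differed in sign, at 0.09 and -0.20. A level below background is a bound, not proof that the transcripts were absent, and how well these probe sets report their genes was not tested. Pramel4 and Pramel5 were measured on shared probe sets. Probe set 1438468_at, shared by Pramel4 and Gm13102, differed by -0.01, and 1434584_a_at, shared by those and Pramel5, by -0.11; both were below background on all arrays.

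The other members gave bounds only. Over the 18 probe sets at or below background, array values ran from 2.34 to 3.47 and differences from -0.20 to 0.15. Of these 18, 11 were lower and 7 higher, and 17 overlapped between the groups. The exception was 1437153_at, shared by Oog2 and Pramel26, at 0.15 with parental values up to 2.67 and knockout values from 2.78, all below background. Besides those named, the 18 comprise Prame, Pramel25, Pramel27, Pramel29, Pramel32 and Pramel34 on probe sets of their own and 5 shared probe sets that include Pramel3, Pramel42, Pramel47 with Pramel34, and, on 2 probe sets, Pramel51 with Oog1. Prame, the gene that gave the family its name, read 3.47, 3.18 and 3.16 in parental and 3.12, 3.26 and 3.08 in knockout replicates, with overlapping groups. Counting all 25, 3 probe sets were lower without overlap, as were 7.52% of all probe sets, and 4 were higher without overlap, as were 6.71%. Of the 7 above background, 3 were lower without overlap, 3 higher and 1 overlapped, where 9.05% of all 26803 probe sets above background were lower and 8.48% higher without overlap; 3 of these 6 belong to Pramel12. The Gm13040, Gm13043 and Gm13057 probe set and Pramel18, among the 3 lower ones, passed the background filter through their parental means alone. Nothing is read from these counts either.

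**Figure D4:**
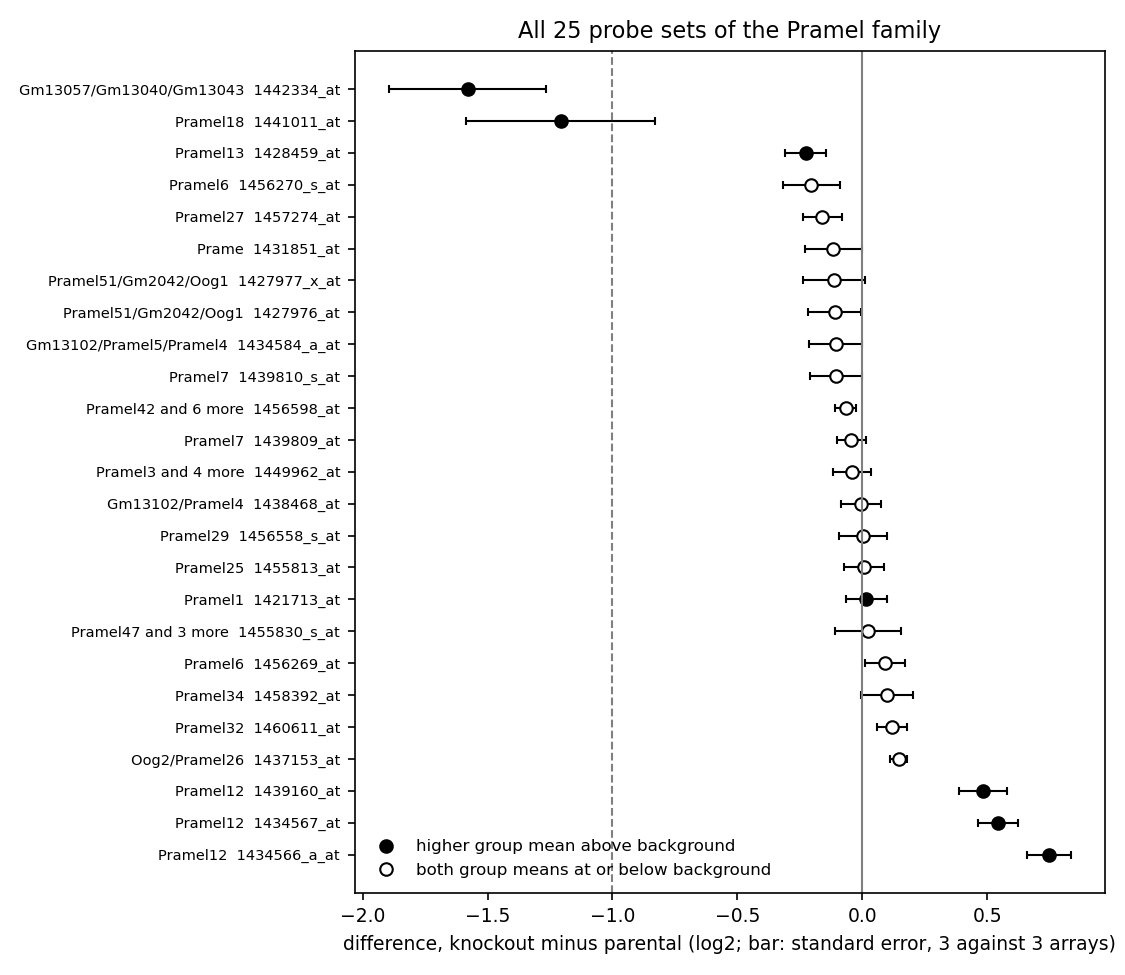
Difference between the group means, knockout minus parental (horizontal axis, log2), for all 25 family probe sets, with bars for the standard error of 3 against 3 arrays; filled points had a group mean above background. The Gm13040, Gm13043 and Gm13057 probe set and Pramel18 lie left of the dashed line at -1, the 3 Pramel12 probe sets lie between 0.48 and 0.75, and the open points lie between -0.20 and 0.15.

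Genes with the most similar profiles were sought among 18181 genes without a family symbol. The measure was the root mean square difference over 6 arrays after each profile's own mean was subtracted. These are the 6 arrays on which the family was selected. Profiles were not scaled, so a similar difference between the lines alone can bring a gene near. Shared regulation was not tested. For the Gm13040, Gm13043 and Gm13057 probe set, an anchor chosen after its values were seen, the nearest was BC080696, at 0.14. This non-coding gene overlaps Pramel41 in the family's chromosome 5 cluster, and whether its probe set reports family transcripts was not tested. Its difference was -1.59. It read 4.23, 4.33 and 4.93 in parental and 2.77, 3.05 and 2.90 in knockout replicates. Parental replicate 3 was again its highest array, and all knockout arrays lay below background. Tex19.1, a germ line and placenta gene (0.20), Spesp1, a sperm gene (0.23), Hormad1, a meiotic chromosome gene (0.24), and Dppa4 itself (0.25) followed. For Pramel12, also an anchor chosen later, the nearest were Ppp1r9a (0.05), Igsf23 (0.06), the testis lactate dehydrogenase gene Ldhc (0.06), Dnmt3l (0.08) and Nme7 (0.08). For Pramel18, chosen in the same way, the nearest were the testis cytochrome gene Cyct (0.24), BC080696 (0.29), Chfr (0.30), Gtsf1 (0.31) and Amph (0.32). For the mean of Pramel6 and Pramel7, whose profile spanned only 0.13, they were Pgm2, C030023E24Rik, Adcy1, Mrpl12 and Snx16, none over 0.02. For the mean of the other members above background, which averages lower and higher genes, they were Pdik1l, Cbln3, Gsx1, Prrc2a and Ankrd16, none over 0.03.

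RNA of the pathway in which Pramel7 acts was read from a list built on its Cullin 2 ligase and on Uhrf1. Protein was not measured, so degradation of Uhrf1 could not be read here. Of 21 measured genes of the Cullin 2 ligase and Uhrf1 list, 1 rose, 0 fell and 20 did not pass, with a median change of -0.02. Before adjustment 5 of the 21 lay under 0.05, and 1 passed with an intensity trend and robust prior. Limma called 0.511% of all 18193 genes lower and 0.0934% higher. Uhrf1, which recruits the maintenance methyltransferase, read 10.03 ± 0.05 and 9.99 ± 0.09 (SD, n = 3; -0.04, SE 0.08, adjusted p = 0.927, limma). Cul2, the scaffold of the ligase, changed by 0.02 (SE 0.08, adjusted p = 0.958), and Dnmt1, the maintenance methyltransferase, by -0.08 (SE 0.10, adjusted p = 0.864). The gene that rose was Dnmt3l, a cofactor of de novo methylation, by 0.65 (SE 0.09, adjusted p = 0.0318). Its call was lost without parental replicate 1 (adjusted p = 0.115), 2 (0.123) or 3 (0.130), without knockout replicate 1 (0.147) or 2 (0.0782), and with the replicate number as a block (0.122).

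Genes of the LIF and Stat3 pathway, upstream of Pramel7, did not pass. At an adjusted p under 0.05, limma called 0 of 15. Before adjustment 2 of them lay under 0.05, and 0 passed with an intensity trend and robust prior. Their median change was 0.06, with 6 below 0 and 9 above. Pim1 (-0.42, adjusted p = 0.187, limma) and Tfcp2l1 (-0.32, adjusted p = 0.391) were lower without overlap, as were 9.05% of all probe sets above background. Stat3 changed by -0.11 (SE 0.08, adjusted p = 0.750) and the receptor gene Lifr by 0.06 (SE 0.14, adjusted p = 0.934). The most abundant members, the kinase gene Pim3 and the transcription factor gene Klf5, changed by 0.08 (adjusted p = 0.816) and -0.01 (0.986).

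In the 2-cell-like list, 2 of 9 measured genes fell, 0 rose and 7 did not pass, and all 9 differences were below 0 (median -0.38, beside a median of 0.00 over all 18193 genes). Of the 9, 4 were above background, among them Eif1ad, which may not mark this state. The list had 23 entries, and genes on shared probe sets only, such as the Zscan4 genes, are not among the 9. The 3 shared probe sets, picked after their values were seen, differed by -5.86 (1457033_at, Zscan4 genes), -6.53 (1443961_at, with Gm4340) and -2.80 (1444529_at, with Gm5662). Usp17la changed by -3.09 (SE 0.15, adjusted p = 0.000106, limma), at least 4.90-fold lower. Tcstv3, a gene of 2-cell embryos, changed by -0.65 (SE 0.07, adjusted p = 0.00887) but lay below background in both lines. It no longer passed when replicate 1 of the parental line (adjusted p = 0.0589) or of the knockout line (0.0548) was left out, or with the replicate block (0.0720). Of the PRAME relatives under other symbols, 3 had a probe set of their own and 0 passed (0 also at an unadjusted p under 0.05 and with the trend, limma). Oog3 and Oog4, oocyte genes of the chromosome 4 cluster, differed by -0.11 (adjusted p = 0.766) and -0.06 (0.897), both below background, and Lrrc14, a more distant relative with leucine-rich repeats, by 0.06 (0.905).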

How the data were processed

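The log2 expression values deposited by the authors, with a column for each array, came from RMA, per the submitters' processing notes. The sources used here do not give the software or chip definition. A range of 2.12 to 13.98 bears out the log2 scale. RMA puts arrays on a shared distribution (medians 4.21 to 4.25), so a shift of most transcripts would not show. Precision is limited by having 3 arrays per line. Of 45101 probe sets, 64 controls were left out. Symbols came from the platform annotation, updated through GRCm38.p6 gene IDs. Lists used 1 probe set per gene, the one with the highest mean among those with 1 symbol.

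All probe sets were fitted with limma 3.58.1 in R 4.3.3 (lmFit, eBayes, two-sided), with Benjamini-Hochberg adjustment over 45037 and a threshold of 0.05; 181 passed. On simulated data for this comparison over 45037 probe sets, the fit found 86.4% of the changes of size log2 1 and 99.2% of those of log2 2, with 23 false calls in 5 runs. The simulation drew independent normal noise with SDs shuffled across probe sets. It left out any correlation between arrays, so these rates need not hold for the real arrays. Family members, gene lists and the rule for named genes were chosen with earlier results of these data known; named were all members, Dppa4, Pou5f1, Nanog, 5 set pathway genes, up to 4 changed genes per list (otherwise the 2 most abundant) and the 5 nearest profiles. A fold bound sets the brighter mean against, per dim array, the higher of its value and background. SE of a member is from the group SDs. Of the 28 entries in the list of PRAME relatives, 16 were current family symbols and 2 belonged to another family. Promoters took the first start listed per gene. Tests were repeated with other normalizations, a replicate block, a trend with robust prior, a background filter and each array left out. No 2 arrays held the same values.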

Additional observations from a re-analysis of the deposited data

How the results depend on the processing

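The 181 probe sets called by limma became 88 with the replicate block (81 shared), 312 with an intensity trend and robust prior (180 shared) and 70 to 112 without 1 array. Replicate numbers were not taken as pairs, because deviations of same-numbered arrays correlated at 0.172, -0.463 and -0.398 over 26803 probe sets above background. Parental replicate 2 correlated best with knockout replicate 3 (0.504), and parental replicate 3 with knockout replicate 2 (0.495). No fit included this pattern across the lines, and its source was not tested. The 2 family probe sets with a fall stayed 2 with both other normalizations and without the x_at and s_at endings, but became 1 when shared probe sets were left out and 1 to 2 without 1 array. The 3 called genes of the related lists became 1 to 3 without 1 array. Of 25 family differences, 19 kept their sign in all 8 settings tried (2 normalizations and 6 arrays left out); the other 6 were no larger than 0.04 in size, and Pramel1 was the one among them above background. Values near 0 turned sign for Klf5 (0.0008 with quantile normalization; -0.0983 to 0.0567 without 1 array), Cul2 (-0.0083 to 0.0717), Lifr (-0.0283 to 0.203) and Lrrc14 (-0.0333 to 0.117). Both groups of 18 of the 25 probe sets, and the knockout arrays of 1442334_at and Pramel18, were at or below background, which leaves bounds.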
